A study of Mus musculus with 6 samples.

Results

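Potassium channel subunit genes encode the pore-forming and auxiliary proteins through which potassium ions cross the cell membrane. They were taken here as the protein-coding genes of the GENCODE vM21 mouse annotation whose symbols belong to the Kcna, Kcnb, Kcnc, Kcnd, Kcne, Kcnf, Kcng, Kcnh, Kcnj, Kcnk, Kcnma, Kcnmb, Kcnn, Kcnq, Kcns, Kcnt, Kcnu and Kcnv families followed by a number. The rule used no measured value. It found 85 genes among the 50686 genes of the count files and the 22028 protein-coding genes of the annotation. The question put to them was how they were expressed in mouse neural stem cells (NSC), how they differed in NSC labelled as overexpressing the Polycomb protein Bmi1, and which of their promoters carried H3K27me3, the repressive histone mark that Polycomb repressive complex PRC2 deposits.

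RNASeq was available for 2 NSC libraries, which were wild type, and for 2 libraries labelled NSC Bmi1Over, whose genotype was STOPFloxBmi1;NestinCre. All were primary cultures from mouse embryos of the same stage. In the second genotype, a Bmi1 transgene lay behind a floxed stop cassette that Cre, driven by Nestin regulatory sequence, removes in neural progenitors. H3K27me3 ChIPSeq was available as 1 peak list for each condition, without replicate. The glioma-initiating cells of the study were not analysed here, and the sources did not say whether each library came from spheres or from an adherent monolayer.

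Potassium channels set the resting membrane potential and end electrical excitation. Voltage-gated subunits assemble as tetramers, inward rectifiers and tandem-pore channels hold cells near the potassium equilibrium potential, and calcium- or sodium-activated channels couple that ion to membrane potential. Silent modifier subunits, BK beta subunits and the MinK family do not form working channels alone and alter the pore subunits they join. In the brain, many voltage-gated members are known from neurons, whereas the inward rectifiers Kcnj10 and Kcnj16 are known from glia.

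The RNASeq libraries held 29325893 and 24578802 counted reads in NSC, and those labelled NSC Bmi1Over held 18112100 and 61353076. Reads of a gene were expressed as CPM, relative to the library total scaled by the trimmed mean of M-values (TMM), and 3 counts corresponded to 0.0525 to 0.171 CPM. Bmi1 itself was at 133 and 124 CPM in NSC against 119 and 113 CPM in the libraries labelled NSC Bmi1Over (log2 fold change −0.15, SE 0.12, edgeR adjusted p = 0.463). Higher Bmi1 was therefore not detected at the Bmi1 gene, the sources did not say whether transgene reads are counted there, and the labels are used below as names. Neural stem cell markers (Nes, Sox2, Pax6, Fabp7, Vim, Hes1, Hes5 and Slc1a3) summed to between 5943 and 6643 CPM in the 4 libraries. Of these 8, 6 had a log2 fold change below 0 (median −0.25) and none passed the test, with Sox2 at 260 and 216 CPM in NSC against 179 and 177 CPM, and Slc1a3 at 1839 and 2228 CPM against 2533 and 3063 CPM. Neuron markers summed to 932 to 1053 CPM, most of it Map2. Gap43 was at 65.4 to 97.7 CPM, Tubb3 at 17.1 to 25.4 CPM and Syn1 at 9.65 to 14.6 CPM. Dcx (3.83 to 10.2 CPM), Snap25 (3.71 to 7.03 CPM) and Rbfox3 (1.38 to 1.94 CPM) were lower, and Stmn2 lay at 0.105 CPM or less. Oligodendrocyte lineage markers summed to 1062 and 1245 CPM in NSC against 1281 and 1466 CPM in the other group. Within them, Sox10 was at 2.50 and 1.58 CPM in NSC against 0.286 and 4.64 CPM, and Pdgfra at 27.9 and 34.4 CPM against 16.5 and 44.5 CPM, so that NSC Bmi1Over replicate 1 lay below and replicate 2 above both NSC libraries. Astrocyte markers summed to 316 to 382 CPM, most of it Slc1a2 (196 to 316 CPM) and Aldh1l1 (53.3 to 122 CPM). S100b was at 7.03 to 13.2 CPM, Aqp4 at 3.97 to 5.37 CPM and Gfap at 0.770 CPM or less. Mural markers summed to 95.8 to 116 CPM, nearly all Notch3. Microglial, endothelial and erythroid markers summed to at most 5.53 CPM. Of the 50 markers listed, 34 were tested and 1 of these changed: Aldh1l1, an astrocyte and radial glia enzyme, fell by 0.86 on the log2 scale (edgeR adjusted p = 0.0440). The part of these cell types in the channel results was not tested, and in bulk RNA fewer cells of a type and less RNA per cell cannot be told apart.

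The wild-type cultures expressed a small number of potassium channel genes strongly. Levels were compared between genes as RPKM, which divides the CPM by the summed exon length of the gene in kb. Of the 85 genes, 24 reached 1 RPKM in all 4 libraries, 74 had a read in NSC replicate 1 and 74 in replicate 2, and 5 (Kcne1, Kcne3, Kcnj1, Kcnj6 and Kcnk9) had no read in any library, which allows a level of up to the 3-count limit given above. The 10 genes with the highest mean over the NSC libraries held 81.3% of the RPKM summed over all 85, and the first 4 held 60.6%. Over all 4 libraries the same genes led, with 80.0% and 59.7%, although their order differed. Means below are over the 4 libraries unless NSC is named.

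**Figure D1:**
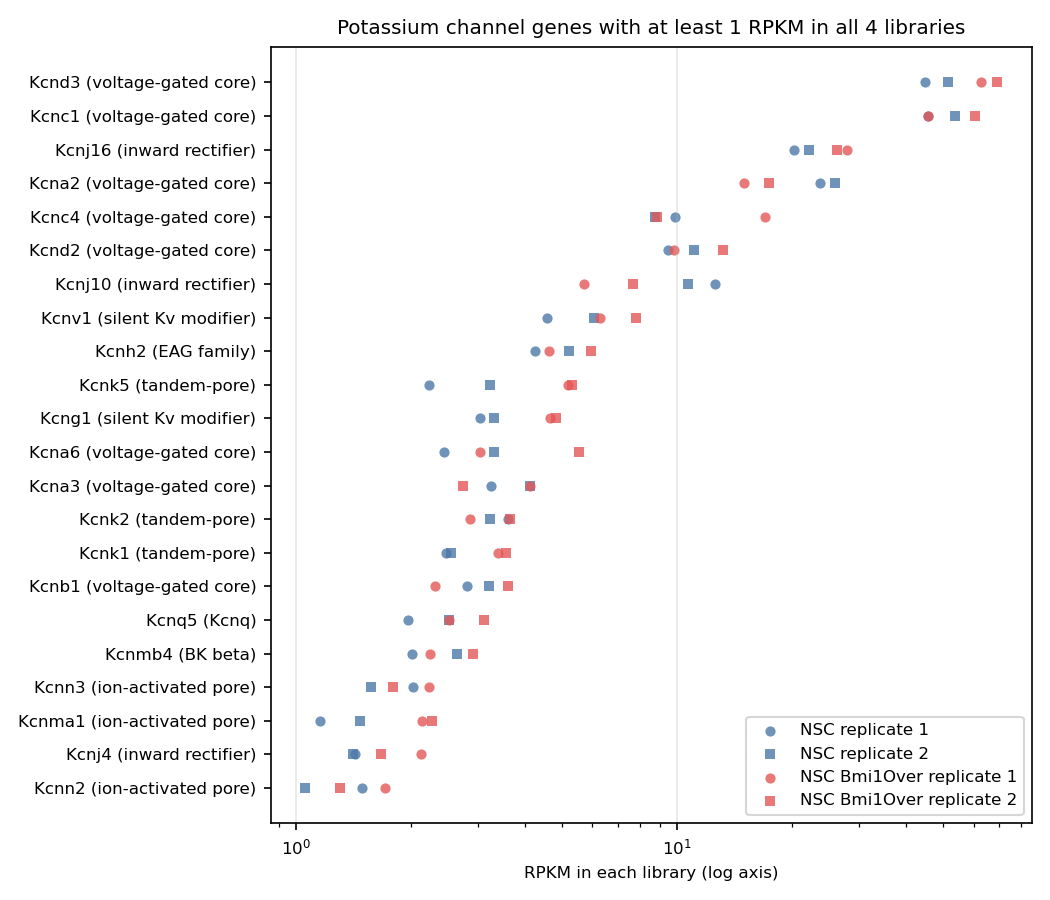
RPKM (log axis) of 22 potassium channel genes with at least 1 RPKM in all 4 libraries, ordered by their mean over the 4; each point is 1 library, circles replicate 1 and squares replicate 2, blue NSC and red NSC Bmi1Over, with the channel class in brackets. Kcnd3 and Kcnc1 lie between 44.6 and 69.3 RPKM and the lowest genes close to 1 RPKM; both red points lie below both blue points for Kcna2 and Kcnj10.

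Voltage-gated pore subunits led the order. In NSC alone, Kcnc1, Kcnd3, Kcna2, Kcnj16 and Kcnj10 had the highest means, in that order. Kcnd3, a subunit of transient A-type channels, was at 44.6 and 51.3 RPKM in NSC against 62.8 and 69.3 RPKM in the libraries labelled NSC Bmi1Over. Kcnc1, a subunit of fast high-threshold channels known from fast-spiking neurons, was at 45.5 and 53.5 RPKM in NSC and at 45.6 and 60.5 RPKM in the other group. The levels of Kcnd3 and Kcnc1 overlapped, so that their order did not exceed the spread between libraries. Other voltage-gated genes among the top 10 included Kcna2 (mean 20.5 RPKM), Kcnc4 (11.1 RPKM) and Kcnd2 (10.9 RPKM). Kcna2 is a delayed rectifier subunit of axons, Kcnd2 a second A-type subunit, and Kcnc4 a relative of Kcnc1. The 17 voltage-gated core genes together held 150 and 171 of the 224 and 249 RPKM summed over the 85 genes in the NSC libraries.

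The glial inward rectifier pair was also among the highest. Kcnj16, which is known to assemble with Kcnj10, was at 20.2 and 22.1 RPKM in NSC against 27.9 and 26.4 RPKM in the libraries labelled NSC Bmi1Over. Kcnj10 was at 12.6 and 10.7 RPKM in NSC and at 5.72 and 7.69 RPKM in the other group. The groups did not overlap for either gene, as for 59% of all tested genes, and the directions were opposite. Neither gene passed in edgeR (adjusted p = 0.130 for Kcnj16 and 0.0513 for Kcnj10). Kcnv1, a silent modifier, had a mean of 6.18 RPKM and Kcnh2, the pore subunit of the cardiac repolarising current that is also expressed in proliferating cells, of 5.004 RPKM.

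In the other classes the highest member by the mean of the 4 libraries was Kcnk5, an acid-sensitive tandem-pore channel, at 3.98 RPKM. In NSC alone the leak channel Kcnk2 had the higher mean, at 3.596 and 3.233 RPKM against 2.23 and 3.231 RPKM for Kcnk5, with nearly equal values in replicate 2. The M-current subunit Kcnq5 had a mean of 2.53 RPKM, the brain BK beta subunit Kcnmb4 of 2.46 RPKM and Kcnn3, a small-conductance calcium-activated channel, of 1.91 RPKM. Kcnq5 and Kcnmb4 overlapped in NSC, at 1.97 and 2.52 RPKM against 2.02 and 2.65 RPKM. The MinK family was close to absent, with its highest member Kcne2 at 0.0448 to 0.149 RPKM and no member tested. Among the tandem-pore genes the leak channels Kcnk2 and Kcnk1 were expressed at means of 3.34 and 2.996 RPKM, whereas Kcnk9 had no read and Kcnk15 and Kcnk16 had 1 read each in 1 library.

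Between the groups, 56 of the 85 genes passed the filter on low counts and entered the edgeR quasi-likelihood test with Benjamini-Hochberg adjustment over all 15521 genes tested. In it, 5 rose and none fell, while DESeq2 called 8 higher and 2 lower (Kcnj10 and Kcna2) and gave 10 of the 56 no adjusted p. The DESeq2 calls are 17.9% of the 56, beside 9.59% of all tested genes called by DESeq2, 8.36% higher and 1.23% lower. The 5 edgeR calls are 8.93% of the 56 tested, beside 2.15% of all tested genes called in either direction, 2.03% called higher and 0.122% called lower. Among tested protein-coding genes 2.39% were called. Kcnj15, Kcng4, Kcnmb1 and Kcnmb2 passed the filter through the libraries labelled NSC Bmi1Over alone, so that they could enter the test only by being higher there, and 2 of the 5 calls (Kcnj15 and Kcng4) are among them. Of the other 52 genes 3 were called (5.77%), beside 2.08% of all genes that reached the minimum in both groups, and their median log2 fold change was 0.30. The median log2 fold change of the 56 genes was 0.38, against −0.01 over all tested genes, and 43 of the 56 (76.8%) were above 0, against 48.6% of all. By level of expression, the medians were 0.41 against 0.07 from 1 to 10 CPM and 0.35 against −0.06 at 10 CPM or more. Under 1 CPM they were 0.34 against 0.17, in a range that holds the 4 genes fixed by the filter and where 61.1% of all tested genes were above 0. The 4 library values did not overlap between groups for 27 of the 56 (48.2%), beside 59% of all tested genes. Of these, 23 were higher (41.1%, beside 29% of all) and 4 lower (7.14%, beside 30%). An unadjusted p under 0.05 was found for 19 of the 56 (33.9%), 17 of them higher and 2 lower, beside 24.2% of all. The 4 genes fixed by the filter are counted among the 43 above 0, the 23 and the 17, which raises these shares. Without these 4, 39 of 52 (75%) were above 0, beside 48.3% of all genes that reached the minimum in both groups.

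The shift of the median moved with 1 library, NSC Bmi1Over replicate 2, in which Sox10 and Pdgfra were also highest; their part in it was not tested. On log2(CPM + 0.5), it was 0.19 for NSC Bmi1Over replicate 1 against the NSC mean and 0.35 for replicate 2, and between replicates of the same group it was 0.12 in NSC and 0.18 in NSC Bmi1Over, where the medians of all tested genes lay at −0.00. The share of the 56 genes above 0 was 64.3% for NSC Bmi1Over replicate 1 and 83.9% for replicate 2 against the NSC mean, and 75% for replicate 2 against replicate 1 within NSC Bmi1Over, so that a share of this size was also found between libraries of 1 group. Refitted without NSC Bmi1Over replicate 2, the median fold change of the tested channel genes was 0.19. With library size alone it was 0.23, while the median of all genes fell to −0.17. With 2 libraries a group, the p-values measure the spread between these cultures, and an exact permutation test on 1 gene could not go below 0.333 (two-sided).

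**Figure D2:**
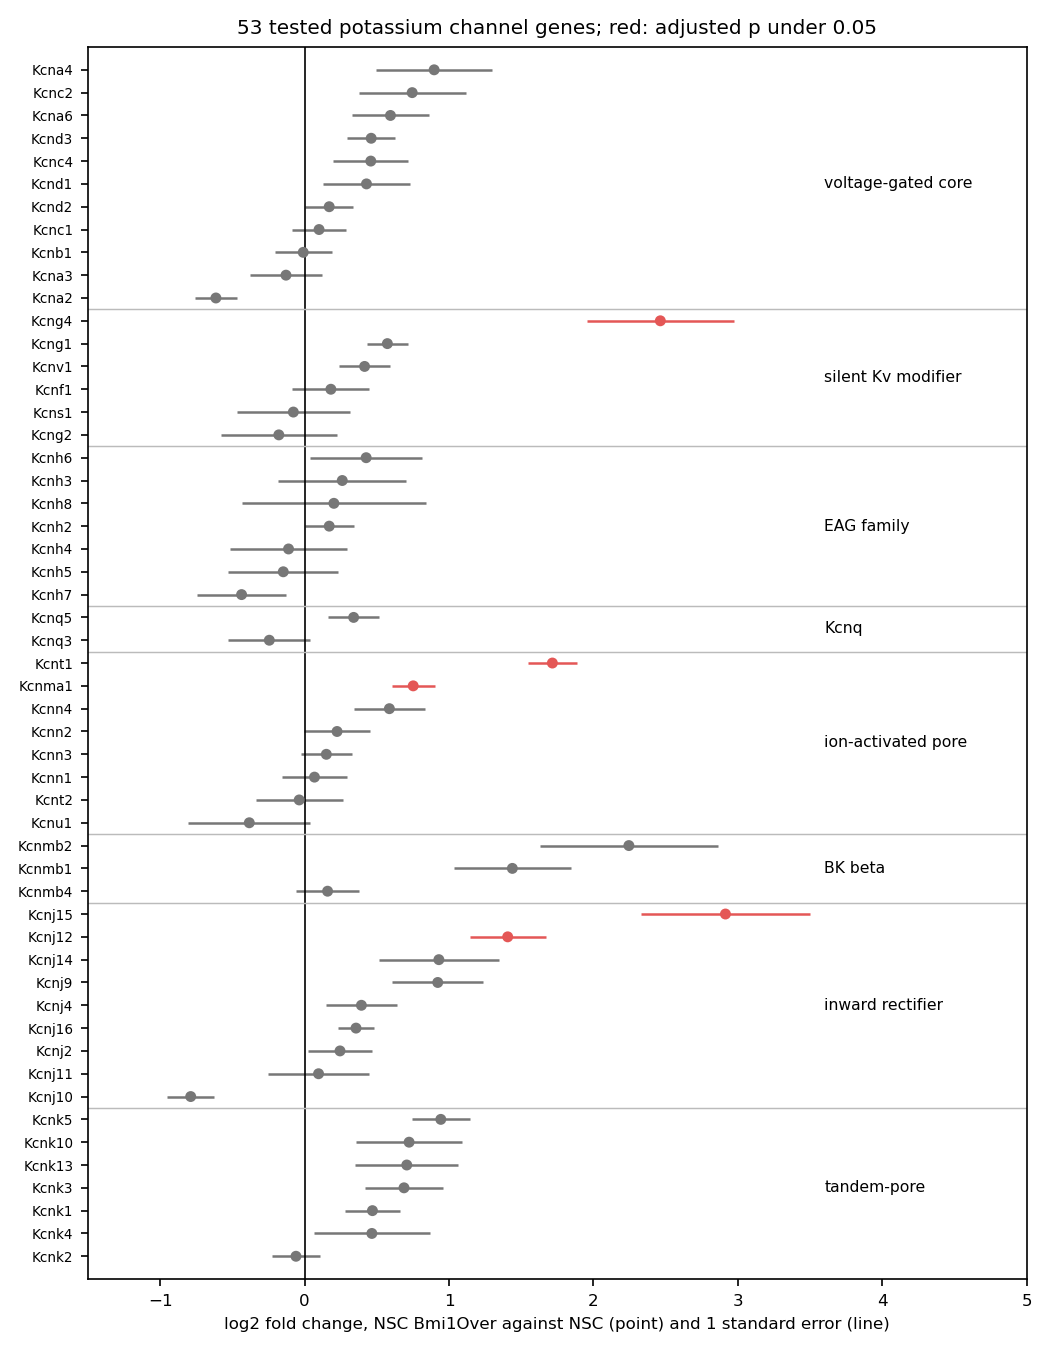
Log2 fold change of NSC Bmi1Over against NSC for 53 tested genes, grouped by channel class; points are edgeR estimates, lines 1 standard error, and red marks an adjusted p under 0.05. The red genes are Kcnt1, Kcnj15, Kcnj12, Kcng4 and Kcnma1, all to the right of 0, with Kcnj10 and Kcna2 farthest to the left.

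Counts by class below are to be read beside the shares of all tested genes. These were 2.15% called by edgeR, 9.59% called by DESeq2 and 24.2% with an unadjusted p under 0.05. Among the 8 pore genes of calcium- and sodium-activated channels, 2 rose. Kcnt1 encodes a sodium-activated potassium channel that is known for slow after-hyperpolarisation in neurons, and lies at chr2:25863734-25918273 (GRCm38). It had 200 and 146 reads in NSC against 330 and 1195 reads in the libraries labelled NSC Bmi1Over, or 6.34 and 5.78 CPM against 18.9 and 20.9 CPM. Both libraries of the second group lay far above both NSC libraries, with group means of 6.06 ± 0.398 and 19.9 ± 1.46 CPM (SD, n = 2 each). The log2 fold change was 1.72 (SE 0.17, edgeR adjusted p = 0.00613). It was the only one of the 5 that passed in all 12 alternative settings, with adjusted p between 2.37e-15 and 0.00783. In 4 of the 12 a library is left out, and the spread then comes from the other group alone, with the single library assumed to vary like it. Kcnt2, the closest relative of Kcnt1, was at 3.11 and 2.97 CPM against 2.06 and 3.64 CPM, and its groups overlapped (log2 fold change −0.04, SE 0.30, edgeR adjusted p = 0.951).

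Kcnma1 encodes the pore of the large-conductance calcium-activated BK channel (chr14:23289431-24014491, GRCm38). It was at 19.6 and 25.0 CPM in NSC and at 36.4 and 38.6 CPM in the other group, without overlap. Its log2 fold change was 0.75 (SE 0.15, edgeR adjusted p = 0.0466). The call was lost in 4 of 12 settings, with adjusted p of 0.345 without NSC replicate 1, 0.0785 without NSC Bmi1Over replicate 2, 0.0528 with library size alone and 0.0518 with DESeq2 size factors. Kcnma1 shares 1016 exonic bp with a non-coding gene on the opposite strand, 4930519K11Rik, and reads there were assigned to neither in unstranded counting.

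Of the BK beta subunits, which tune the calcium sensitivity of Kcnma1, 3 were tested and none passed in edgeR. Kcnmb1 and Kcnmb2 had an unadjusted p under 0.05 and no adjusted p in DESeq2, and their direction was fixed by the filter. Kcnmb3 was not tested. Kcnmb2 was at 0.0951 and 0.158 CPM in NSC and at 0.914 and 0.437 CPM in the other group (fitted log2 fold change 2.25, SE 0.62, edgeR adjusted p = 0.0860). Kcnmb1 was at 0.285 and 0.277 CPM against 0.7997 and 0.752 CPM (log2 fold change 1.44, SE 0.40, edgeR adjusted p = 0.0874). Neither gene overlapped between groups, at 3 to 43 reads a library. Both passed in 2 alternative settings, Kcnmb2 with the replicate block (adjusted p = 0.0146) and with no filter on low counts (0.00818), and Kcnmb1 in the same settings (0.0364 and 0.0457). Kcnmb4, the most expressed beta subunit, overlapped, at 6.72 and 8.82 CPM against 7.48 and 9.66 CPM.

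The small-conductance genes were within the spread between libraries. Kcnn3 was at 21.2 and 16.4 CPM in NSC and at 23.3 and 18.8 CPM in the other group (log2 fold change 0.15, SE 0.18, edgeR adjusted p = 0.615). Kcnn1 and Kcnn2 also overlapped between groups, with log2 fold changes of 0.07 (SE 0.23) and 0.23 (SE 0.23). The sign of Kcnn3 and Kcnn1 turned with library size alone. Kcnn4, the intermediate-conductance channel, was at 2.44 and 2.73 CPM against 3.43 and 4.24 CPM (log2 fold change 0.59, SE 0.25, edgeR adjusted p = 0.193).

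Of the 15 inward rectifier genes, 9 were tested and 2 rose. Kcnj12, a strong inward rectifier known from heart and brain (chr11:61022564-61071131, GRCm38), was at 1.49 and 1.98 CPM in NSC against 4.28 and 4.81 CPM in the libraries labelled NSC Bmi1Over. The groups did not overlap, and the log2 fold change was 1.41 (SE 0.26, edgeR adjusted p = 0.0411). The adjusted p was 0.137 without NSC replicate 1 and 0.0992 without NSC Bmi1Over replicate 2.

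Kcnj15, a relative of Kcnj10 (chr16:95257558-95300260, GRCm38), was near the limit of detection. It had 2 reads in each NSC library and 12 and 28 reads in the others, or 0.0634 and 0.0791 CPM against 0.685 and 0.490 CPM. The ratio of summed counts per library size was 7.61 (exact 95% interval 2.75 to 29.3, counting error only), and the fitted log2 fold change was 2.91 (SE 0.59, edgeR adjusted p = 0.0476). DESeq2 gave it no adjusted p. Since it reached the filter's minimum in the second group only, its direction was fixed by the filter. The call was lost in 4 settings: without NSC replicate 1 (adjusted p = 0.334), without NSC Bmi1Over replicate 2 (0.118), with DESeq2 size factors (0.0518) and among protein-coding genes only (0.0504). Kcnj15 shares 333 exonic bp with Gm49643 on the opposite strand.

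The glial rectifier Kcnj10 was lower without passing the test. It was at 67.9 and 57.9 CPM in NSC against 30.9 and 41.6 CPM in the libraries labelled NSC Bmi1Over, without overlap (log2 fold change −0.79, SE 0.16, edgeR adjusted p = 0.0513). It passed in 7 of 12 settings, with log2 fold changes between −1.03 and −0.60. Its partner Kcnj16 was at 79.6 and 87.1 CPM against 110 and 104 CPM (log2 fold change 0.36, SE 0.12, edgeR adjusted p = 0.130). The G-protein-gated subunit Kcnj9 was at 0.856 and 1.27 CPM against 1.94 and 2.03 CPM (log2 fold change 0.92, SE 0.31, edgeR adjusted p = 0.125), and the related Kcnj3, Kcnj5 and Kcnj6 were not tested, at 0.127 CPM or less.

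No voltage-gated core gene passed in edgeR, and 9 of the 12 tested were above 0. An unadjusted p under 0.05 was found for 3 of the 12, close to the 24.2% of all tested genes. DESeq2 called 3, including Kcnd3 and, lower, Kcna2. Kcna2 was at 282 and 309 CPM in NSC and at 178 and 208 CPM in the other group, without overlap (log2 fold change −0.61, SE 0.15, edgeR adjusted p = 0.0667). It passed in 4 of 12 settings. Kcnd3 was at 428 and 492 CPM against 602 and 664 CPM, also without overlap (log2 fold change 0.46, SE 0.17, edgeR adjusted p = 0.143). Kcnc1 overlapped, at 430 and 506 CPM against 431 and 572 CPM, and its sign turned without NSC replicate 1, without NSC Bmi1Over replicate 2 and with library size alone. Kcnd2 overlapped as well, at 48.7 and 57.0 CPM against 50.4 and 68.0 CPM.

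Of the silent modifiers, which give no current alone, 6 were tested and 1 rose, while 3 had an unadjusted p under 0.05 and DESeq2 called Kcng1 and Kcng4, both higher. Kcng4 (chr8:119623854-119635680, GRCm38) had 5 and 8 reads in NSC against 31 and 56 in the libraries labelled NSC Bmi1Over, or 0.158 and 0.316 CPM against 1.77 and 0.980 CPM. The groups did not overlap, although the second pair differed from each other by more than the whole NSC level. The ratio of summed counts per library size was 5.09 (exact 95% interval 2.83 to 9.95), and the fitted log2 fold change was 2.46 (SE 0.51, edgeR adjusted p = 0.0494). As for Kcnj15, the filter was passed through the second group alone and fixed the direction. The call was lost without NSC replicate 1 (adjusted p = 0.142), with DESeq2 size factors (0.0566), with summed stranded counts (0.0513) and among protein-coding genes only (0.0512). Kcng1 was at 13.7 and 15.0 CPM against 20.96 and 21.6 CPM (log2 fold change 0.57, SE 0.14, edgeR adjusted p = 0.0689). Kcnv1 was at 20.9 and 27.8 CPM against 28.7 and 35.9 CPM (log2 fold change 0.42, SE 0.18, edgeR adjusted p = 0.195), with a fold change of 0.22 without NSC replicate 1 and 0.24 without NSC Bmi1Over replicate 2.

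None of the EAG, Kcnq or tandem-pore genes passed in edgeR. No EAG or Kcnq gene had an unadjusted p under 0.05 or a DESeq2 call (DESeq2 gave Kcnh3, Kcnh6 and Kcnh8 no adjusted p), whereas 3 tandem-pore genes had such a p and DESeq2 called Kcnk5. Kcnk5 was closest, at 7.61 and 11.0 CPM in NSC and at 17.6 and 18.04 CPM in the other group (log2 fold change 0.94, SE 0.20, edgeR adjusted p = 0.0521), and passed in 6 of 12 settings. Of the 7 tandem-pore genes tested, 6 were above 0, and Kcnk2, the mechanically gated leak channel, was at 17.8 and 15.98 CPM against 14.2 and 18.01 CPM. The EAG gene Kcnh2 overlapped, at 20.6 and 25.2 CPM against 22.3 and 28.8 CPM. Kcnh7, of the same family, was at 3.52 and 2.22 CPM against 1.83 and 2.35 CPM (log2 fold change −0.44, SE 0.31, edgeR adjusted p = 0.401), with a fold change of −0.06 without NSC replicate 1 and −0.73 without NSC replicate 2. The M-current gene Kcnq5 was at 15.1 and 19.3 CPM against 19.4 and 23.9 CPM (log2 fold change 0.34, SE 0.17, edgeR adjusted p = 0.267), with a fold change of 0.17 to 0.52 when 1 library was left out, lowest without NSC replicate 1 and highest without NSC replicate 2.

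The 29 genes that were not tested had at most 26 reads in any library and at most 0.743 CPM. Of these, 12 had an H3K27me3 promoter peak in NSC.

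Partners of the channels were taken from a list of 39 genes, comprising auxiliary subunits, calmodulins, HCN channels, sodium pump subunits and cation-chloride cotransporters. Of the 29 tested, 2 (6.9%, beside 2.15% of all tested genes) rose and none fell in edgeR, and DESeq2 called 4 higher (13.8%, beside 8.36%) and 0 lower. An unadjusted p under 0.05 was found for 11 (37.9%, beside 24.2% of all), of which 1 was lower. Slc12a7, a potassium-chloride cotransporter, was at 18.1 and 23.5 CPM against 32.7 and 39.8 CPM in the other group (log2 fold change 0.81, SE 0.17, edgeR adjusted p = 0.0498), and had an NSC promoter peak. Slc12a7 did not overlap between groups, and its call was lost in 6 of 12 settings. Kcnip3 and Dpp6, which associate with the A-type channels of Kcnd2 and Kcnd3, both overlapped, Kcnip3 at 148 and 173 CPM against 117 and 185 CPM.

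None of the 5 genes that rose had an H3K27me3 peak within 5 kb of an annotated start in either list, and the promoters of 4 of them are shown for that reason. Each is the 300 bases from 250 before to 50 after the main transcription start site (TSS), 5′ to 3′ on the gene's strand, from the RefSeq GRCm38.p6 genome, with the CpG dinucleotides, where DNA methylation falls and Polycomb marks concentrate, in capitals. They are Kcnt1 (chr2:25877623-25877922, plus strand), Kcnma1 (chr14:24004156-24004455, minus strand), Kcnj15 (chr16:95257308-95257607, plus strand) and Kcng4 (chr8:119635631-119635930, minus strand).
Kcnt1: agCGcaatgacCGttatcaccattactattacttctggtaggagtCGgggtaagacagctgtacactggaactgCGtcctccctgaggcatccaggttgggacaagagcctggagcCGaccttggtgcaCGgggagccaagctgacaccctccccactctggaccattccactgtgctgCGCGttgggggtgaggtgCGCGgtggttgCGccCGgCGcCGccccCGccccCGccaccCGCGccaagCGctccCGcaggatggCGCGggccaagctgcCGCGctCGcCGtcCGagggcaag
Kcnma1: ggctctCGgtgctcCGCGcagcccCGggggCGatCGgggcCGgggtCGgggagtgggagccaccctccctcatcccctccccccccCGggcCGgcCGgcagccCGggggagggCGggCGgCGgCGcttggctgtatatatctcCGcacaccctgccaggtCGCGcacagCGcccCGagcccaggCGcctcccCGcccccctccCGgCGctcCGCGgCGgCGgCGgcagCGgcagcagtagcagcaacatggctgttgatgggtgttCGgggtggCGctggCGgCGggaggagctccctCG
Kcnj15: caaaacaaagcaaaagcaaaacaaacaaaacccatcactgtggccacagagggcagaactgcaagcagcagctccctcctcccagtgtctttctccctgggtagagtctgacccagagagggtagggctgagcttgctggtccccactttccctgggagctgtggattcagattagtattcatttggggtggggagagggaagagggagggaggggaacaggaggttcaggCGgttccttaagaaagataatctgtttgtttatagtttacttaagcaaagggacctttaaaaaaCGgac
Kcng4: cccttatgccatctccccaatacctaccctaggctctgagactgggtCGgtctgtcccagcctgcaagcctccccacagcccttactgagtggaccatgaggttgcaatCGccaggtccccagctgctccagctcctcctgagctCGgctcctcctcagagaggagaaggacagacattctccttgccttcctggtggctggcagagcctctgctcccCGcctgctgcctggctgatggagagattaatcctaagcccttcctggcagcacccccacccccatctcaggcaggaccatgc
Among these 4, Kcnt1 and Kcnma1 held 27 and 36 CpG, and Kcnj15 and Kcng4 held 2 and 4. The median over all protein-coding promoters was 12, and 94.9% of them held at least 1 CpG (the CG pair reads alike on both strands).

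H3K27me3 was found at a large minority of channel promoters in NSC. A promoter peak within 5 kb of an annotated TSS was listed for 25 of the 85 genes (29.4%) in NSC, beside 8.83% of all 22028 protein-coding genes, and for 13 (15.3%) in NSC Bmi1Over, beside 4.38%. Of these, 12 were in both lists, 13 in NSC only and 1 in NSC Bmi1Over only, and the other 59 had no peak in promoter or gene body in either list. The lists held 12982 and 6810 peaks in all, from 1 library each, so that the difference between conditions has no replicate error and cannot be told apart from ChIP depth. Read totals in the study's methods differed between replicates of each condition, with the highest in an NSC replicate. The authors set aside the weakest samples by read number, quality scores and fingerprint plots, and used 1 replicate per condition. The methods do not name the replicate that was kept. The number depended on the threshold: at a fold enrichment of 5 or more 11 genes stayed in NSC and 10 in NSC Bmi1Over, beside 3.06% and 2.53% of all protein-coding genes. At a peak length of 1000 bp or more 14 stayed in NSC, beside 3.895% of all, and none in NSC Bmi1Over, where the share of all was 1.49%.

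**Figure D3:**
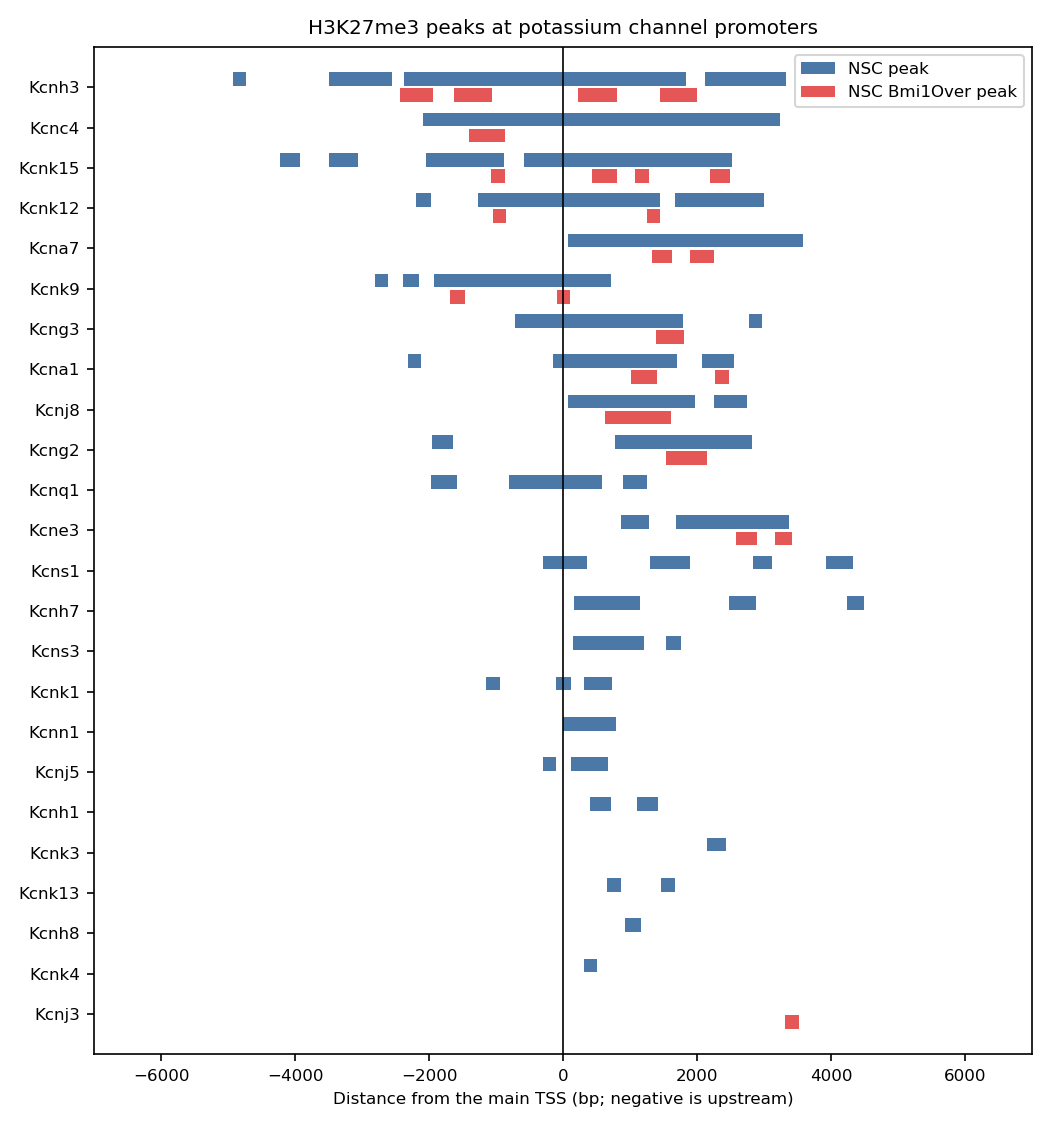
H3K27me3 promoter peaks of 24 genes with a peak in either list, drawn to scale as distance from the main TSS in bp (negative is upstream), blue for NSC and red for NSC Bmi1Over, ordered by the summed length in NSC. One Kcnk3 peak, near another start of that gene, lies beyond the drawn 7000 bp; in each gene of both lists the red peaks cover less than the blue, and all but the Kcnj3 peak overlap a blue one.

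Marked genes came from most classes. They were 3 voltage-gated core genes in both lists (Kcna1, Kcna7 and Kcnc4), 4 silent modifiers (Kcng2, Kcng3, Kcns1 and Kcns3), 4 EAG genes (Kcnh1, Kcnh3, Kcnh7 and Kcnh8) and 3 Kcnq genes, including Kcnq1. The tandem-pore class held 7 of 14 (Kcnk1, Kcnk3, Kcnk4, Kcnk9, Kcnk12, Kcnk13 and Kcnk15). Marked inward rectifiers were Kcnj5 and Kcnj8 in NSC and Kcnj3 in NSC Bmi1Over, and Kcne3 and Kcnn1 completed the list. No BK beta gene was marked.

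The 57 NSC promoter peaks of these genes covered 54953 bp and the 27 NSC Bmi1Over peaks 10153 bp. Of the NSC Bmi1Over peaks, 26 overlapped an NSC peak. The NSC peak spanned a TSS in 17 of 25 genes and the NSC Bmi1Over peak in 1 of 13, Kcnk9. In all 12 genes of both lists more bp were covered in NSC, with medians of 3172 and 599 bp. Single channel peaks had a median length of 445 bp in NSC, beside 428 bp at all coding promoters, and of 297 bp in NSC Bmi1Over, beside 479.5 bp. Genes marked in NSC only had shorter cover in NSC than those marked in both, with a median of 748 bp (200 to 2145 bp) against 3172 bp (2109 to 6555 bp).

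The widest NSC peak lay over Kcnc4, with 5323 bp at chr3:107456323-107461645 (GRCm38, fold enrichment 5.11), and spanned its TSS. In NSC Bmi1Over, Kcnc4 had a single peak of 534 bp upstream of the start. Kcnh3, an EAG gene of the forebrain, had a peak of 4199 bp with the highest enrichment of the channel genes (6.94-fold). It was followed in width by Kcna7 (3513 bp), the tandem-pore gene Kcnk15 (3103 bp) and Kcnk12, a tandem-pore subunit related to Kcnk13 (2714 bp). Kcnj3, the gene marked in NSC Bmi1Over only, had 1 peak of 219 bp at chr2:55439278-55439496 (fold enrichment 4.98) and at most 4 reads in any library.

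The promoters of Kcnc4 (chr3:107459503-107459802, minus strand) and Kcnk12 (chr17:87797945-87798244, minus strand) are shown, in the same form, as 2 that lay wholly under a broad NSC peak while their expression differed. None of their 300 bases lay under an NSC Bmi1Over peak.
Kcnc4: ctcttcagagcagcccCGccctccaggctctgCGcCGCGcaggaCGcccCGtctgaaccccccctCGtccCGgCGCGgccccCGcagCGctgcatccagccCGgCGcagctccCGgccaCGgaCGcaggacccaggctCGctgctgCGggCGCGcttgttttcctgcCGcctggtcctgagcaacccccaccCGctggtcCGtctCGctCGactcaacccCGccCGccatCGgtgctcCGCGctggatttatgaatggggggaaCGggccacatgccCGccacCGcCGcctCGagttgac
Kcnk12: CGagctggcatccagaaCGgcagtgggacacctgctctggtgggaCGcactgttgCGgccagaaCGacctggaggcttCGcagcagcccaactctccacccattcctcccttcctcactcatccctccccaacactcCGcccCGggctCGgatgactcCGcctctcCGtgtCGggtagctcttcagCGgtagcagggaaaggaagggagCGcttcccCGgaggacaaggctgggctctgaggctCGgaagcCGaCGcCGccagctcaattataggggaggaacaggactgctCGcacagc
They held 36 and 20 CpG, so that Kcnc4 equalled Kcnma1, which was without a peak. Channel promoters with an NSC peak had a median of 21 CpG and a CpG observed-to-expected ratio of 0.65, against 11 and 0.49 in the 60 without. All protein-coding promoters with an NSC peak had 16 CpG and a ratio of 0.64, and those without 12 and 0.54. A GC content above 50% with a ratio of at least 0.6 was met by 15 of the 25 marked (60%) and by 21 of the 60 unmarked channel promoters (35%), beside 50.5% and 43.0% of all protein-coding promoters with and without an NSC peak.

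Marked channel genes were expressed less than unmarked ones in each library. The median was 0.0661 and 0.0608 RPKM in NSC for the 25 genes with an NSC peak, against 0.327 and 0.320 RPKM for the 60 without. In the libraries labelled NSC Bmi1Over the same medians were 0.0695 and 0.119 RPKM against 0.391 and 0.493 RPKM. Over all protein-coding genes the gap was wider in NSC, with 0.101 and 0.0978 RPKM for marked against 1.31 and 1.30 RPKM for unmarked genes. The 12 genes marked in both lists had medians of 0.0538 and 0.0254 RPKM in NSC, the 13 in NSC only stood at 0.224 and 0.159 RPKM, and Kcnj3, in NSC Bmi1Over only, at 0.0122 and 0.00759 RPKM.

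**Figure D4:**
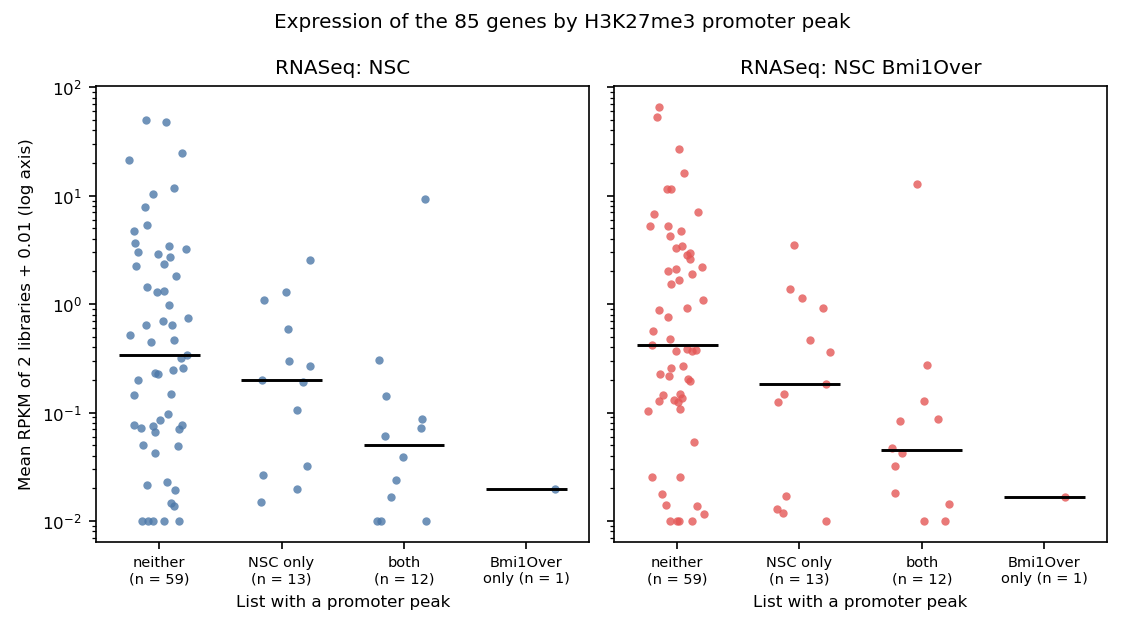
Expression of the 85 genes by the list that holds a promoter peak; points are the mean RPKM of the 2 NSC libraries (left) or the 2 libraries labelled NSC Bmi1Over (right), plus 0.01 so that genes without reads can be drawn on the log axis, and bars are medians. The single high point among the genes marked in both lists is Kcnc4.

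Of the marked genes, 9 nevertheless had a mean of at least 1 CPM. Kcnc4 stood apart from the others, at 36.1 and 32.0 CPM in NSC against 62.2 and 32.5 CPM in the libraries labelled NSC Bmi1Over. One library of the second group lay above the other 3, and the log2 fold change (0.46, SE 0.26, edgeR adjusted p = 0.306) was −0.07 without NSC Bmi1Over replicate 1 and 0.87 without replicate 2, where it passed the test. Kcnk1, Kcnk3, Kcnk4, Kcnk13, Kcnn1 and Kcnh7 were marked in NSC only. The leak channel Kcnk1 was at 5.55 and 5.70 CPM against 7.60 and 7.94 CPM, without overlap (log2 fold change 0.47, SE 0.19, edgeR adjusted p = 0.183). The acid-sensitive leak channel Kcnk3 was at 2.22 and 2.37 CPM against 2.97 and 4.27 CPM (log2 fold change 0.69, SE 0.27, edgeR adjusted p = 0.170), with a fold change of 0.37 without NSC Bmi1Over replicate 2. Kcnk13, a halothane-inhibited one, was at 0.697 and 1.11 CPM against 1.1996 and 1.63 CPM. Kcnk4, a mechanically gated leak channel, was at 1.58 and 0.712 CPM against 1.31 and 1.82 CPM. Kcnn1 overlapped, at 5.36 and 4.63 CPM against 4.57 and 5.79 CPM.

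No tested channel gene with an NSC promoter peak passed in edgeR, and 2 of the 13 had an unadjusted p under 0.05. DESeq2 called none and gave 3 of them no adjusted p. Of these 13, 10 were above 0 with a median log2 fold change of 0.26. Of the 43 tested genes without one, 33 were above 0 with a median of 0.39, and these held the 5 that rose (11.6%). The 43 include the 4 genes whose direction was fixed by the filter, and with them 2 of the 5 calls. The background was 3.38% of the 1034 tested protein-coding genes with an NSC peak called and 2.3% of the 12291 without, so that 0 of 13 does not set the marked channel genes apart. Among all protein-coding genes the medians were 0.16 with and −0.03 without an NSC peak.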

How the data were processed

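RNASeq and H3K27me3 ChIPSeq of mouse NSC were used as deposited. Per the study's methods, the authors trimmed reads with Trim Galore, aligned RNASeq reads with STAR to mm10 (GRCm38) and deposited counts per gene for each library. ChIPSeq reads were aligned with Bowtie2 2.3.4, and the authors called broad peaks per library with MACS2. The deposited peak lists give a fold enrichment (ratio to background), −log10 p- and q-values, and a display score that was not used. Aligner and caller versions other than Bowtie2 are not given in the sources used here.

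Unstranded counts of 2 NSC and 2 NSC Bmi1Over libraries (18112100 to 61353076 counted reads; 27.8% to 34.1% of the reads in the files lay on no single gene and were left out) were tested with edgeR 4.0.16 in R 4.3.3. TMM normalisation, a quasi-likelihood F-test by group and a threshold of 0.05 on Benjamini-Hochberg adjusted p followed the study's methods. The filterByExpr filter (minimum count 10) left 15521 genes, and the authors' biotype filter was not applied. The biological coefficient of variation was 12.9%. On simulated counts for this comparison with 15528 genes, the test called 75% of the genes altered 2-fold and 98.9% of those altered 4-fold. Every simulated gene had this same coefficient of variation of 12.9%. Differences in spread between genes were therefore absent, and these shares do not give the power for the channel genes. RPKM used the union of annotated exons. Of 50686 gene identifiers, 50462 matched GENCODE vM21. A promoter peak overlapped the 5 kb either side of any annotated TSS by at least 1 bp. Promoter features were computed in 300 bp genome windows for all 85 genes, since RefSeq promoter entries matched 61. Protein sequences were not used here, and single values or promoters of some genes are not reported here. Intervals on counts cover counting error only.

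The genes named with values were those called, the 3 largest uncalled fold changes in each direction, the 10 highest by RPKM, the highest of each class, the 5 with the widest NSC peak, those with a peak in NSC Bmi1Over only, marked genes averaging 1 CPM or more, called partners and Bmi1. Other genes named beside them, and the promoters printed, were chosen after their values were seen. The members and lists were chosen with earlier results of these data known. Alternatives were DESeq2 1.42.0, other scalings and filters, stranded counts, a replicate block, each library left out, and other peak thresholds.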

Additional observations from a re-analysis of the deposited data

How the results depend on the processing

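With 2 libraries a group and 1 ChIPSeq library a condition, the counts of called genes moved with most choices, whereas the peak counts moved with fold and length thresholds; the causes were not tested. Over all genes 334 were called, against 1488 with DESeq2, 537 with library size alone and 2356 with no filter on low counts. Leaving out 1 library gave 176 to 2546. Called channel genes numbered 5, against 10 with DESeq2, 2 with DESeq2 size factors in edgeR, 14 with no filter, 3 at a mean of at least 1 CPM, 3 among protein-coding genes and 1 to 11 without 1 library. Called partners numbered 2, against 4 with DESeq2, 0 with DESeq2 size factors, 9 with no filter, 1 at a mean of at least 1 CPM, 1 with summed stranded counts, 1 among protein-coding genes and 0 to 12 without 1 library. Calls were 315 higher and 19 lower (94.3% higher) with TMM and 346 higher and 191 lower (64.4% higher) with library size alone. The median fold change of the channel genes was 0.23 with library size alone, where that of all tested genes was −0.17. Without 1 library the median of the channel genes was 0.19 to 0.41.

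The replicate numbers mark no shared animal or day in the labels, and the deviations of equally numbered libraries correlated at r = 0.24 over 15521 genes, from the 1 pair of differences available. With the replicate block 3459 genes, 17 channel genes and 11 partners were called.

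With library size alone the log2 fold change reversed for Kcnc1 (−0.0496), Kcnn3 (−0.000205) and Kcnn1 (−0.0881). Without 1 library it ranged from −0.12 to 0.29 for Kcnc1, −0.0745 to 0.87 for Kcnc4, −0.0653 to 0.36 for Kcnd2, −0.0327 to 0.33 for Kcnh2, −0.0483 to 0.36 for Kcnmb4, −0.0224 to 0.35 for Kcnn3, −0.0381 to 0.56 for Kcnh3 and −0.13 to 0.21 for Kcnn1. Kcnt1 kept its direction and side of the threshold in all 12 settings. Kcnj15, Kcng4, Kcnmb1, Kcnmb2 and Kcnh3 lay below the filter at 1 CPM and have no value there.

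Genes with an NSC promoter peak numbered 25, against 11 at a fold enrichment of at least 5 and 14 at a length of at least 1000 bp. At that length 0 genes were left in NSC Bmi1Over and 0 in both lists.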
